A study of Homo sapiens with 6 samples.

Results

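The chaperone genes of the heat shock protein and DNAJ families were measured by RNA sequencing in A549, a lung adenocarcinoma cell line, after transfection of SNHG5 or of a vector. The study asks how SNHG5, a long non-coding RNA, bears on movement of these cells and on their epithelial state. Each group held 3 libraries, called overexpression 1 to 3 and control 1 to 3 here, and both groups came from the same line grown in the same serum-supplemented medium. The labels do not say whether transfection was transient or stable, and they name no batch. They call the libraries biological replicates without naming separate cultures. The p-values set the group difference against the spread between these libraries, and may not speak for separate cultures or transfections.

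Members were the protein-coding genes whose symbols begin with HSPA, HSPB, HSPD, HSPE, HSPH, HSP90, DNAJA, DNAJB or DNAJC. The table listed 78 of them among 58302 gene rows, and 62 reached 1 CPM (a gene's counts scaled to the size of its library) in 3 or more of the 6 libraries. None of the 62 passed through 1 group alone. They carry 61 symbols, since HSPA14 has 2 gene rows that overlap. HSPBP1, HSPBAP1 and HSPB11 share the HSPB prefix but are not small heat shock proteins. HSPE1-MOB4 and DNAJC25-GNG10 are readthrough genes of neighbouring pairs.

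Chaperones bind unfolded proteins and help them reach or regain their shape. HSP70 proteins (the HSPA genes) grip short stretches of a client in a cycle driven by ATP, J-domain proteins (the DNAJ genes) bring the clients and start the ATP step, and HSP110 proteins reset it by exchanging the nucleotide. HSP90 proteins act later on kinases and receptors, small heat shock proteins (HSPB) hold unfolded clients, and HSPD1 with HSPE1 forms the folding chamber of mitochondria. Under heat and other stress that unfolds proteins, heat shock factor 1 (HSF1) binds inverted repeats of GAA and TTC, the heat shock element, before many of these genes. Cancer cells commonly keep these genes at high levels.

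Before the chaperones, the libraries themselves need a short account. The libraries held 13378079 to 16999604 counts, and a floor of 3 counts equals 0.176 to 0.224 CPM (counting error only). SNHG5 stood at 153, 127 and 62.9 CPM in overexpression 1, 2 and 3 and at 61.0, 101 and 55.1 CPM in controls 1, 2 and 3. The library labelled overexpression 3 lay within the range of the controls, so the groups overlapped (log2 difference 0.66, edgeR adjusted p 0.746, exact permutation p 0.2, with 0.1 the smallest possible). Control 2 held 28.1 CPM of the nuclear RNA MALAT1 against at least 118 CPM elsewhere, and its share of mitochondrially encoded counts was 2.57%, against 3.8% to 6.16%. Ribosomal RNA genes took 1.04% to 1.14% of counts in overexpression libraries and 0.8% to 0.852% in controls. The interferon-induced gene RSAD2 lay between 12.8 and 18.3 CPM in the overexpression libraries and between 109 and 115 CPM in the controls. Whether these differences have a part in the chaperone values was not tested. KRT8 and ALDH1A1 (3757 to 5186 CPM) were abundant, while EPCAM (2.27 to 4.19 CPM) was low for an epithelial line. KRT8 stood at 1265, 1306 and 2248 CPM in the overexpression libraries and 2473, 2661 and 2438 CPM in the controls. Its groups did not overlap (log2 difference -0.65, edgeR unadjusted p 0.0461, adjusted p 0.746). CDH1 stood at 7.89, 8.59 and 28 CPM against 17.1, 33.6 and 29.99 CPM, with overlap (-0.86, edgeR adjusted p 0.746). KRT7 and KRT18 were at -0.35 and -0.30, and EPCAM and KRT19 at 0.32 and 0.0081, all with overlap. The leukocyte markers PTPRC, CD3E and LYZ had 0 counts in all 6 libraries, and the endothelial markers PECAM1, VWF and CDH5 reached 0.133 CPM at most. The fourth leukocyte marker, CD68, a lysosomal protein, was present at 38.4, 39.5 and 25.7 CPM in the overexpression libraries and 75.2, 91.6 and 91.6 CPM in the controls, with no overlap (log2 difference -1.32, edgeR adjusted p 0.0948). Its part in the chaperone values was not tested. Among fibroblast markers, DES was at 0, and PDGFRB, COL3A1 and COL1A1 reached 0.408, 4.56 and 16.4 CPM.

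Sequences before the start sites show which members carry heat shock element letters. RefSeq start sites (GRCh38.p14) were matched by symbol for 56 of the 61 symbols, giving 75 promoters, and the 250 bases before each start were searched on both strands. The 5 symbols with no match were DNAJC1, DNAJC22, DNAJC24, HSPA14 and HSPB11. The letters GAANNTTC, 2 units of the element facing each other, stood in 12 of the 75 promoters (16%), against 5.78% of all 35116 promoters in the table. The longer form GAANNTTCNNGAA, which contains the shorter one, stood in 5 of the 75 (6.67%) against 0.441% of all. The 12 genes were HSPA1A, HSPA1B, HSPA1L, HSPA8, HSPB1, HSPB8, HSPD1, HSP90AA1, HSP90AB1, DNAJA1, DNAJB1 and DNAJB6. A match is a description of letters and no measure of binding. The sites are printed in 30 bases each, on the strand of the gene, with the element in capitals.
HSPA1A (chr6:31815426-31815455, plus strand): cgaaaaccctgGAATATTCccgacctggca
HSPA1B (chr6:31827622-31827651, plus strand): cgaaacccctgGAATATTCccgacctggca
HSPB1 (chr7:76302480-76302509, plus strand): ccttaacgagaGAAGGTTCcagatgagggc
DNAJA1 (chr9:33025064-33025093, plus strand): aaagggctccaGAAGATTCcacgagcgccg
HSPA8, distal (chr11:123062345-123062374, minus strand): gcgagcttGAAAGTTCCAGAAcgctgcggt
HSPA8, proximal (chr11:123062170-123062199, minus strand): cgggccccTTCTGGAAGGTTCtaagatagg
DNAJB1, distal (chr19:14518456-14518485, minus strand): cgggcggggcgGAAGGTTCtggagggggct
DNAJB1, proximal (chr19:14518426-14518455, minus strand): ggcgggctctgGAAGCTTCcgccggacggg
HSP90AA1 (chr14:102087111-102087140, minus strand): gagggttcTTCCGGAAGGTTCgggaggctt
HSP90AB1, distal (chr6:44247770-44247799, plus strand): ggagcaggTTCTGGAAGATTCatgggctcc
HSP90AB1, proximal (chr6:44247823-44247852, plus strand): tgagattgTTCTGGAAGCTTCtggattctg
HSPD1 (chr2:197500061-197500090, minus strand): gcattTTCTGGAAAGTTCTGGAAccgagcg
HSPB8 (chr12:119178832-119178861, plus strand): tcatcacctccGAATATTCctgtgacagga
DNAJB6 (chr7:157336865-157336894, plus strand): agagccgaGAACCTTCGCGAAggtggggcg

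The element of HSPA1A also lies in the HSPA1L window, on the other strand and at the same coordinates, because these neighbours face away from each other. Over the 250 bases before their starts, HSPA1A and HSPA1B were 93.6% identical. The stretch before HSPA1A (chr6:31815293-31815463, plus strand, 171 bases outside its annotated exons) is shown because the results turn on HSPA1A more than on any other member. Capitals mark the element.
HSPA1A: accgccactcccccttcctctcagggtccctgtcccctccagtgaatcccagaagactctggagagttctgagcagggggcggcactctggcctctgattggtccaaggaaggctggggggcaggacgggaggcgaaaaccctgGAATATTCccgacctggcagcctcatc

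Across all 62 members, no gene passed the threshold between the groups. The edgeR quasi-likelihood test, adjusted by Benjamini-Hochberg over 15631 genes, called 0 members higher and 0 lower at an adjusted p of 0.05, where 0.128% of all genes tested were called (0.0256% higher, 0.102% lower). The smallest adjusted p among the members was 0.568. At an unadjusted p under 0.05 there were 2 members higher (2.09% of all genes) and 2 lower (4.41% of all genes). DESeq2 called 0 members against 1.7% of all genes, and 4 had an unadjusted p under 0.05 against 7.43%. With limma-voom 0 were called against 0.154%, and 6 had an unadjusted p under 0.05 against 6.83%. With same-numbered libraries paired as a block in edgeR, 0 were called against 0.467% of all genes, and 9 had an unadjusted p under 0.05 against 9.29%.

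Fitted differences were small for most members. Of the 62, 48 had a log2 fold change within 0.5 of 0, and 1, HSPA2, exceeded 1. Over all 15631 genes tested, 12128 lay within 0.5 of 0 and 713 exceeded 1 in either direction. The share within 0.5 was therefore much the same for the members as for all genes. The median was 0.14, against 0.0072 over all genes, with 37 members above 0 and 25 below. Over all genes tested, 7932 were above 0 and 7699 below. Standard errors ran from 0.17 to 1.26 with a median of 0.26. Differences of about 3 standard errors, those of HSPA4L and DNAJC3, did not pass the adjustment over all genes.

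**Figure D1:**
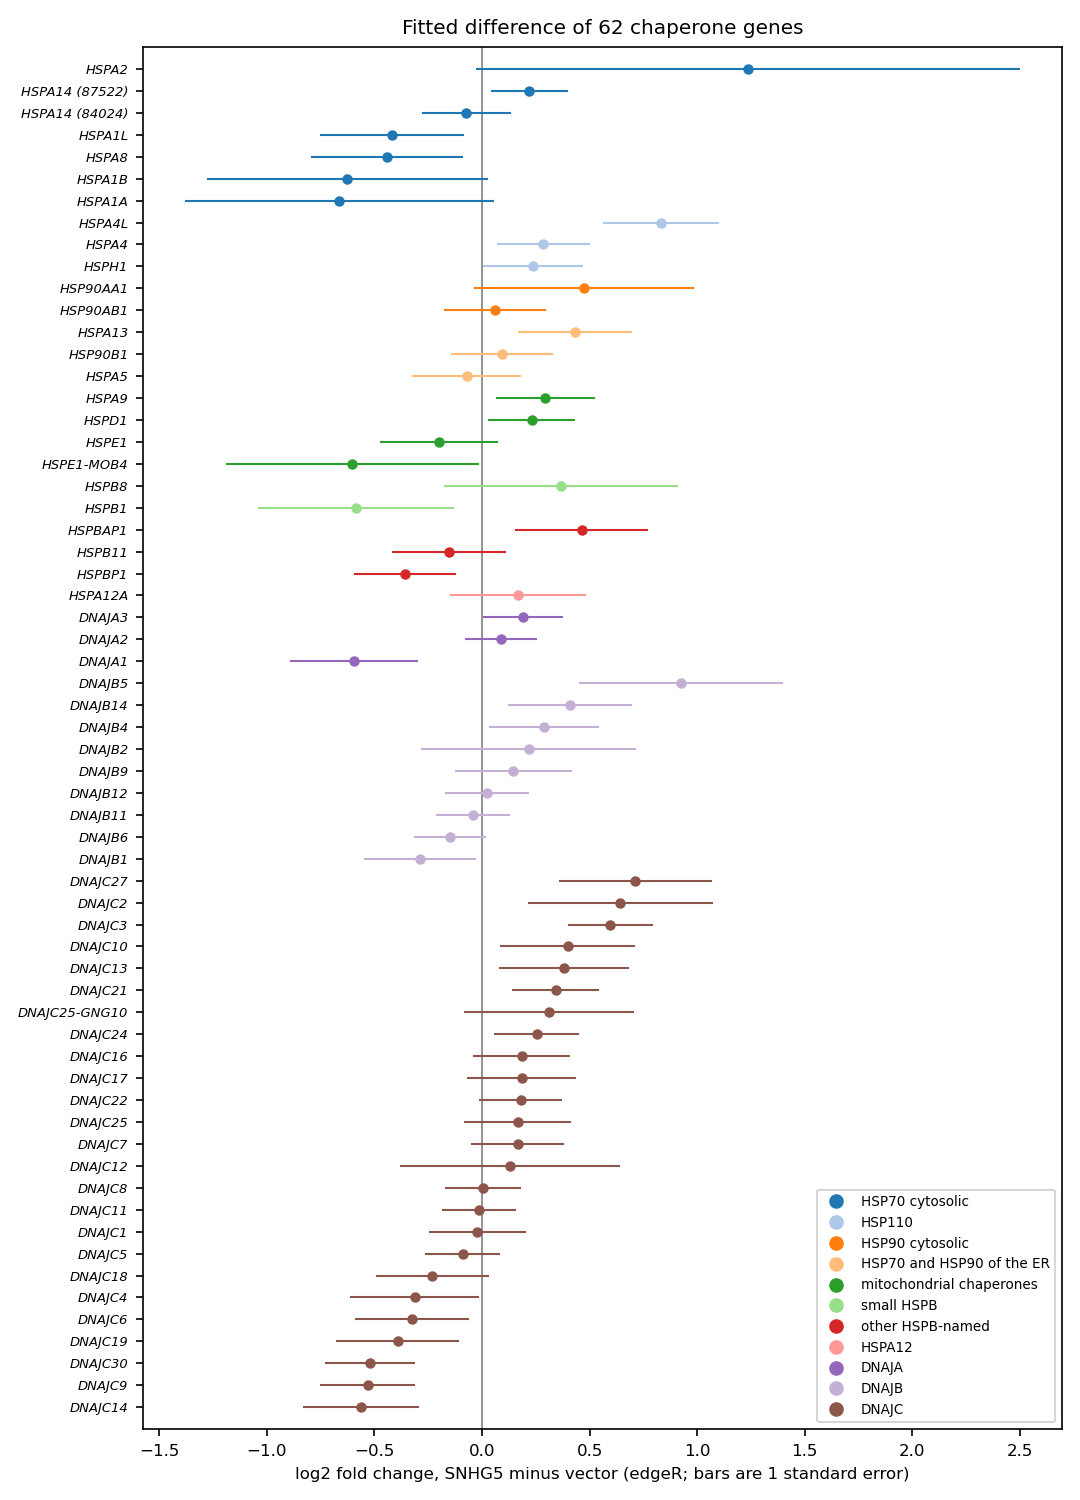
Log2 fold change of SNHG5 over vector libraries (x axis) for each of the 62 chaperone genes (y axis), grouped and coloured by role, with bars of 1 standard error from the edgeR fit. Most points lie within 0.5 of 0, the HSPA1A, HSPA1B and HSPA8 points lie left of 0 with wide bars, and all 3 HSP110 points lie right of it.

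The heat-inducible HSP70 genes and their partners differed within the overexpression group more than between groups. HSPA1A and HSPA1B encode the stress-inducible HSP70 (chromosome 6, 31815464 to 31817946 and 31827735 to 31830255). HSPA1A stood at 75.6, 75.4 and 514 CPM in overexpression 1, 2 and 3 and at 282, 326 and 446 CPM in controls 1, 2 and 3. Overexpression 1 and 2 were the lowest libraries and overexpression 3 the highest, so the groups overlapped. The log2 difference was -0.66 (SE 0.72, edgeR adjusted p 0.801), and within the same-numbered pairs it was -1.90, -2.11 and 0.21. HSPA1B was split in the same way, at 13.8, 9.90 and 65.3 CPM against 38.3, 39.5 and 59.9 CPM (log2 difference -0.63, SE 0.65, edgeR adjusted p 0.797).

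These genes cannot be counted apart with certainty. The longest stretch shared letter for letter by an HSPA1A and an HSPA1B transcript was 1715 bases, and 69.9% of the 100-base windows of HSPA1A occur in HSPA1B. HSPA1A held 5.46 to 8.25 times the counts of HSPA1B in the 6 libraries. HSPA1B also overlaps AL671762.1 on the same strand. No 100-base window of HSPA1A occurs in the HSPA8, HSPA2, HSPA6 or HSPA1L transcripts compared.

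Overexpression 1 and 2 were also the lowest libraries for HSPB1, DNAJA1 and HSPA8. HSPB1, a small heat shock protein that holds unfolded clients and binds actin, stood at 62.2, 83.0 and 221 CPM in the overexpression libraries and 142, 215 and 194 CPM in the controls. DNAJA1, a cytosolic J-domain partner of HSP70, stood at 368, 355 and 692 CPM against 627, 711 and 799 CPM. HSPA8, the constitutive HSP70 that also uncoats clathrin vesicles, stood at 827, 819 and 1836 CPM against 1286, 1725 and 1719 CPM. In each of these genes overexpression 1 and 2 lay below all 3 controls, while overexpression 3 lay inside or above the range of the controls. Their log2 differences were -0.59, -0.60 and -0.44 (SE 0.46, 0.30 and 0.35), with edgeR adjusted p of 0.751, 0.746 and 0.753.

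DNAJB1, the J-domain protein classically induced with HSPA1A by heat, moved less. Its levels were 77.2, 65.0 and 120 CPM against 94.8, 122 and 103 CPM, again lowest in overexpression 1 and 2 (log2 difference -0.29, SE 0.26, edgeR adjusted p 0.772). HSPH1, an HSP110 protein that is also heat-inducible, did not share that order. It stood at 257, 221 and 304 CPM against 235, 167 and 263 CPM, lowest in control 2.

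**Figure D2:**
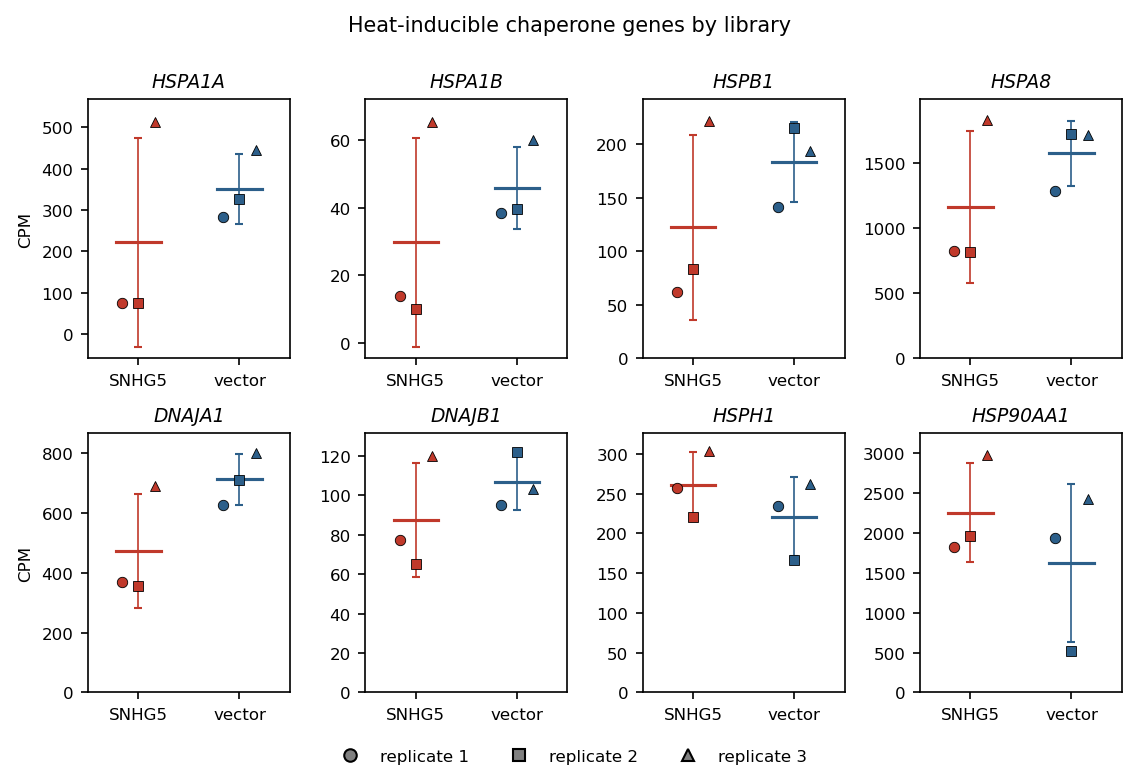
CPM (y axis, linear, a separate scale for each gene) of 8 heat-inducible chaperone genes in SNHG5 (red) and vector (blue) libraries. Symbols give the replicate number, the horizontal line is the mean of 3 libraries and the bar is 1 SD. Overexpression 1 and 2 are the 2 lowest libraries for HSPA1A, HSPA1B, HSPB1, HSPA8, DNAJA1 and DNAJB1, with overexpression 3 near or above the controls, and HSP90AA1 is lowest in control 2.

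Without the library labelled overexpression 3, HSPA1A and HSPA1B were called lower. Overexpression 1 and 2 together against the 3 controls gave a log2 difference of -2.22 for HSPA1A (SE 0.26, 4.66-fold lower, edgeR adjusted p 0.0218) and -1.95 for HSPA1B (SE 0.30, 3.87-fold lower, edgeR adjusted p 0.0446). In that fit 0.902% of all 15964 genes tested were lower and 0.125% higher, and these were the 2 members called. HSPB1 (-1.34), DNAJA1 (-0.98) and HSPA8 (-0.94) did not pass, with edgeR adjusted p of 0.0777, 0.0857 and 0.115. Leaving out overexpression 1 or control 1 gave 0 calls among the members, where 0.00627% and 0.136% of all genes were called, and leaving out overexpression 2, control 2 or control 3 gave 0 calls among all genes. The call rests on which libraries stand for overexpression. Overexpression 3 held the least SNHG5 of its group. In the fit without it, SNHG5 itself was not called (log2 difference 0.95, edgeR adjusted p 0.152). Whether the SNHG5 level has a part in the HSPA1A and HSPA1B values was not tested. With all 6 libraries and the replicate block, HSPA1A had a log2 difference of -1.30 and an edgeR adjusted p of 0.523.

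Genes that heat shock factor 1 is known to induce were taken as a list of 21, of which 20 were tested (HSPA6 was too low). None was called (0.128% of all genes were), and 1, HSPA4L, was higher at an unadjusted p under 0.05, against 2.09% of all genes higher and 4.41% lower. Of the 20, 8 had a log2 difference above 0 and 12 below, and the median was -0.10 against 0.0072 over all genes. Their median deviation from each gene's own mean was -0.28 in both overexpression 1 and 2 and 0.34 in overexpression 3 on the log2 scale. In controls 1, 2 and 3 it was 0.03, 0.15 and 0.16. SERPINH1, the collagen chaperone of the endoplasmic reticulum (ER), was chosen after its values were seen, at 58.3, 55.8 and 146 CPM against 107, 125 and 148 CPM. BAG3, which links HSP70 to HSPB8, stood at 88.2, 87.3 and 134 CPM against 119, 122 and 148 CPM, and HSF1 itself at 43.8, 55.0 and 76.4 CPM against 78.0, 76.9 and 66.0 CPM. Neither BAG3 nor HSF1 passed (edgeR adjusted p 0.749 for each).

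Other cytosolic HSP70 genes had other orders of libraries. HSPA2, best known for its role in sperm formation, had the widest range of all members, at 1.46, 12.2 and 136 CPM in overexpression 1, 2 and 3 and 39.8, 12.5 and 11.3 CPM in controls 1, 2 and 3. Its highest library held 93.4 times the lowest, and both were overexpression libraries. The log2 difference of 1.24 (SE 1.26, edgeR adjusted p 0.794) turned to -1.64 without overexpression 3 and to -0.12 with the block. HSPA14, a ribosome-associated HSP70, was steady. Its longer gene row (ENSG00000187522) stood at 40.8, 39.7 and 36.4 CPM against 33.6, 36.3 and 30.7 CPM, with no overlap of the groups. The gap between overexpression 3 (36.44 CPM) and control 2 (36.27 CPM) was smaller than the SD of either group, 2.29 and 2.80 CPM. The log2 difference of this row was 0.22 (edgeR SE 0.18 and adjusted p 0.756). The overlapping row (ENSG00000284024) had a log2 difference of -0.07. HSPA1L, a testis-enriched relative beside HSPA1A, was near the detection limit of the rule at 1.75 to 3.61 CPM. HSPA6, a strictly inducible HSP70, had 1 to 4 counts in any library and was not tested.

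The 3 HSP110 members, HSPA4, HSPA4L and HSPH1, which exchange the nucleotide of HSP70, had fitted differences above 0. None passed, where 0.128% of all genes tested did. HSPA4L stood at 95.0, 91.8 and 82.7 CPM against 53.9, 32.1 and 65.4 CPM, every overexpression library above every control. Its log2 difference of 0.83 (SE 0.27, 1.78-fold) had the smallest p of all members, but did not pass (edgeR unadjusted p 0.0157, adjusted p 0.568). HSPA4, its close relative, also separated the groups, at 583, 499.4 and 515 CPM against 499.3, 337 and 474 CPM (log2 difference 0.29, SE 0.22, edgeR adjusted p 0.751). For HSPA4 the gap between overexpression 2 and control 1 was smaller than the SD of either group, 44.2 and 87.1 CPM. Without control 2, the lowest library for all 3, the log2 difference was 0.59 for HSPA4L, 0.13 for HSPA4 in place of 0.29, and 0.066 for HSPH1 in place of 0.24. The 3 pairs of HSPA4L were at 0.82, 1.51 and 0.34.

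Some members separated the groups without passing the test. Among the 62 members, 5 had every overexpression library above every control (HSPA4, HSPA4L, HSPA14, DNAJC3 and DNAJC21) against 6.04% of all genes tested, and 1 had every one below (DNAJC30) against 7.52%. DNAJC3, an ER protein that binds unfolded clients and inhibits the kinase PERK, stood at 78.3, 79.6 and 63.0 CPM against 52.04, 41.4 and 52.7 CPM (log2 difference 0.60, SE 0.20, edgeR unadjusted p 0.0161, adjusted p 0.572). DNAJC21, which acts in ribosome maturation, stood at 77.1, 71.3 and 63.7 CPM against 60.0, 44.3 and 63.1 CPM, so that its groups met at overexpression 3 and control 3. The log2 difference of DNAJC21 was 0.34, and 0.20 without control 2. DNAJC30, a mitochondrial J-domain protein, was lower at 12.0, 13.0 and 11.6 CPM against 17.8, 19.1 and 15.5 CPM (log2 difference -0.52, SE 0.21, edgeR unadjusted p 0.0381, adjusted p 0.743). BUD23 overlaps 14.4% of the DNAJC30 exon length on the opposite strand, and the library kit does not mark strand.

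The cytosolic HSP90 genes, HSP90AB1 and HSP90AA1, were the most abundant members per length. Scaled to the union of annotated exons, HSP90AB1 led at 552 CPM per kilobase, averaged over the 6 libraries, followed by HSP90AA1 at 368, HSPA8 at 282, DNAJA1 at 216 and HSP90B1 at 168. HSPD1, HSPA1A, HSPA5, HSPA9, HSPA4 and HSPB1 lay between 136 and 93.5 CPM per kilobase. The next member, DNAJC8, which takes part in splicing, was at 36.6, and the lowest, DNAJB5, at 1.01. This order depends on the length used. By the mean of the deposited FPKM, levels that the submitters scaled to length, HSP90AB1 (419) and HSP90AA1 (216) again led. DNAJA1 (194), HSPA9 (110.3), HSPA5 (109.8), HSP90B1 (103) and HSPA8 (96.8) came next. The members' summed share of counts was 1.114%, 1.105% and 1.478% for overexpression 1, 2 and 3, and 1.149%, 1.004% and 1.281% for controls 1, 2 and 3.

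HSP90AA1, the inducible cytosolic HSP90, was set apart by a single control. It stood at 1827, 1969 and 2975 CPM in the overexpression libraries and 1935, 520.3 and 2423 CPM in the controls, so control 2 held less than any other library. The log2 difference was 0.47 (SE 0.51, edgeR adjusted p 0.801) and fell to 0.05 without control 2. HSP90AB1, the constitutive form, ranged only from 1296 to 1978 CPM, with a log2 difference of 0.06 (edgeR SE 0.24 and adjusted p 0.945). Both promoters hold the longer heat shock element printed above.

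The main folding chaperones of the ER had differences near 0. HSPA5 (BiP), the ER HSP70, stood at 379, 315 and 564 CPM against 443, 399.5 and 480.2 CPM, with overexpression 2 lowest and overexpression 3 highest (log2 difference -0.07, SE 0.25, edgeR adjusted p 0.936). HSP90B1, the ER HSP90, had a log2 difference of 0.09, and DNAJB11 and DNAJB9, J-domain partners of HSPA5, had -0.04 and 0.15. DNAJC10, a disulfide reductase of the ER, stood at 114, 113 and 147 CPM against 94.5, 56.1 and 134 CPM (0.40, SE 0.31), and HSPA13, an ER-associated HSP70, at 88.7, 86.9 and 74.6 CPM against 75.6, 39.4 and 70.5 CPM (0.43, SE 0.27). Both were lowest in control 2, and without it their log2 differences were 0.13 and 0.19. Over 12 ER members, the median log2 difference was 0.16, against 0.0072 over all genes. Of the 12, 9 lay above 0, against 7932 of all 15631 genes tested, and 0 were called, against 0.128%.

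The ER stress element, searched as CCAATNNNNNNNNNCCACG on both strands, is a site through which the unfolded protein response acts. It stood in 2 of the 75 promoters (2.67%), those of HSPA5 and HSP90B1, against 0.074% of all. The HSPA5 promoter (chr9:125241344-125241593, minus strand) is shown as the ER counterpart of the HSPA1A promoter, with the ER stress element in capitals and no heat shock element letters.
HSPA5: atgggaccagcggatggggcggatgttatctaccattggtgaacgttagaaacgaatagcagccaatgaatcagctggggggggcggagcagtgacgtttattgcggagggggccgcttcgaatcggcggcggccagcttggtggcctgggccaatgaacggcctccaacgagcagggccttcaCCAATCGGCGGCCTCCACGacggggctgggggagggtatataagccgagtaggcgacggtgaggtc

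No mitochondrial chaperone passed the test, where 0.128% of all genes tested did. HSPD1, which forms the folding chamber, stood at 651, 619 and 607 CPM against 558, 432 and 610.4 CPM (log2 difference 0.23, SE 0.20, edgeR adjusted p 0.766). Without control 2 its log2 difference was 0.098. HSPE1, its lid, stood at 38.7, 39.0 and 56.4 CPM against 38.9, 68.9 and 46.3 CPM (-0.20, SE 0.27, edgeR adjusted p 0.835). HSPD1 and HSPE1 lie head to head on chromosome 2 and overlap each other, and control 2 was the lowest library for HSPD1 and the highest for HSPE1. HSPA9 (mortalin), the HSP70 that pulls proteins into mitochondria, stood at 1052, 978 and 684 CPM against 827, 675 and 712 CPM, highest in overexpression 1 and 2 (0.29, SE 0.23, edgeR adjusted p 0.752). DNAJA3, its J-domain partner, had a log2 difference of 0.19 (SE 0.19). Reads of HSPE1-MOB4 overlap HSPE1 and MOB4 over the whole of its exons, so its 2.33 to 9.48 CPM cannot be told apart from theirs.

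**Figure D3:**
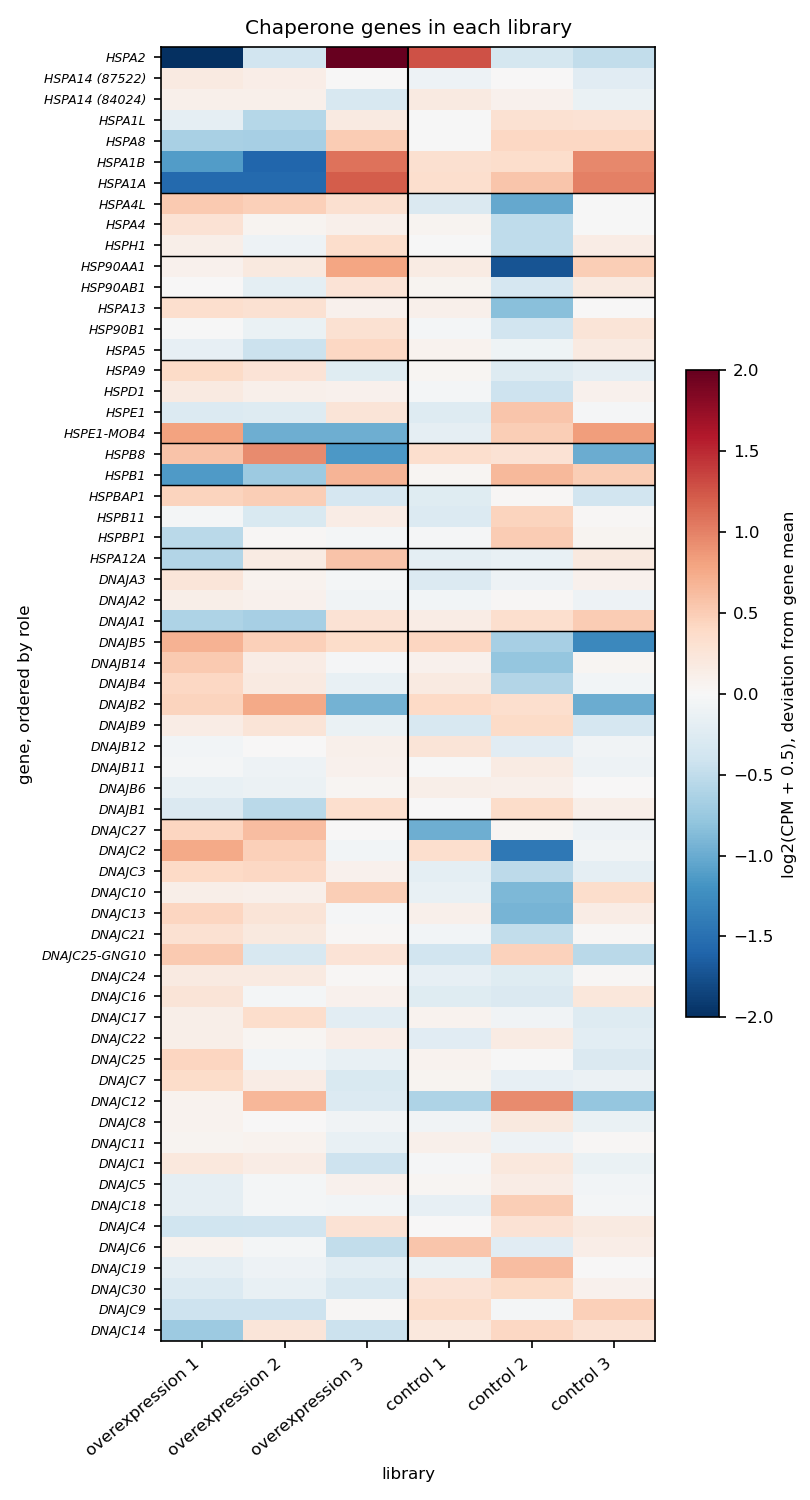
Deviation of log2(CPM + 0.5) from each gene's mean over the 6 libraries (colour, limited at 2 either way) for the 62 chaperone genes (rows, ordered by role with lines between roles) in each library (columns). HSPA1A, HSPA1B and HSPB1 are blue in overexpression 1 and 2, HSP90AA1 and DNAJC2 are blue in control 2, and HSPB8 and DNAJB2 are blue in both libraries numbered 3.

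Libraries numbered 3 stood apart for HSPB8 and DNAJB2. HSPB8, a small heat shock protein that works with BAG3 in selective autophagy, stood at 66.9, 86.5 and 20.02 CPM against 56.8, 55.1 and 22.4 CPM. DNAJB2, a J-domain protein that hands ubiquitinated clients to the proteasome, stood at 38.1, 47.7 and 14.3 CPM against 36.9, 35.3 and 13.9 CPM. In both genes overexpression 3 and control 3 were the 2 lowest libraries, below every library numbered 1 or 2. The groups overlapped, and the log2 differences were 0.37 (SE 0.54) and 0.22 (SE 0.50), with edgeR adjusted p of 0.847 and 0.904. The labels give no batch to which the number could refer.

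Most J-domain genes had small fitted differences, while their spread between libraries varied from gene to gene. The 3 DNAJA, 9 DNAJB and 25 DNAJC members had medians of 0.09, 0.15 and 0.17 on the log2 scale, against 0.0072 over all genes. Of them, 2, 8 and 19 lay within 0.5 of 0, against 12128 of all 15631 genes tested. In each group 0 were called, where 0.128% of all genes were. DNAJA2, DNAJB6, DNAJB11, DNAJC5, DNAJC8 and DNAJC11 varied by at most 1.25-fold between their highest and lowest libraries, against a median of 2.02-fold over all genes. Others, named after their values were seen, ranged more widely, among them DNAJC12 (3.48-fold), DNAJC27 (3.38-fold), DNAJC13 (2.56-fold) and DNAJC14 (2.23-fold). DNAJB6, which suppresses the aggregation of polyglutamine proteins and holds the longer heat shock element, ranged from 80.2 to 96.2 CPM (log2 difference -0.15, SE 0.17). DNAJC5, a chaperone of synaptic and secretory vesicles, ranged from 82.9 to 103 CPM (-0.09, SE 0.17). DNAJB4, a heat-inducible relative of DNAJB1, stood at 80.5, 68.9 and 54.7 CPM against 68.7, 40.1 and 58.2 CPM (0.29, SE 0.25, and 0.098 without control 2).

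Some other J-domain genes also varied more, and DNAJC2, DNAJC9 and DNAJB5 were chosen from them after their values were seen. DNAJC2, a ribosome-associated partner of HSPA14, stood at 133, 110 and 75.8 CPM against 99.6, 28.9 and 75.5 CPM, with control 2 the lowest. DNAJC9, a histone chaperone of replication, stood at 53.8, 53.6 and 73.0 CPM against 91.4, 69.9 and 99.5 CPM (log2 difference -0.53, SE 0.22, edgeR unadjusted p 0.0436, adjusted p 0.743). FAM149B1, DNAJC9-AS1 and MRPS16 overlap 29.1% of the DNAJC9 exon length. DNAJB5, the member with the lowest level per kilobase, stood at 8.80, 7.50 and 6.93 CPM against 7.26, 3.15 and 1.85 CPM (0.92, SE 0.47, edgeR adjusted p 0.746). Over all 62 members the highest library exceeded the lowest by more than 3-fold in 12 (19.4%), against 23.1% of all genes tested, and the median range was 1.83-fold.

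**Figure D4:**
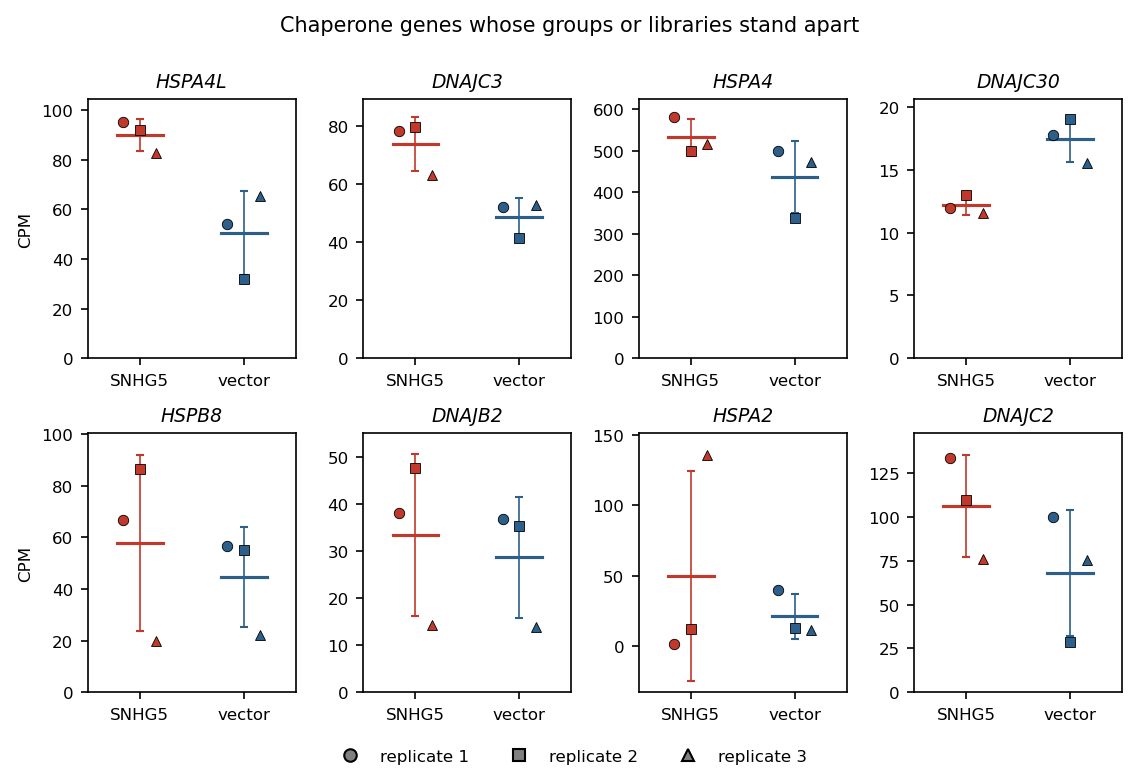
CPM (y axis, linear, a separate scale for each gene) of 8 chaperone genes whose groups did not overlap (HSPA4L, DNAJC3, HSPA4, DNAJC30) or in which single libraries stood apart (HSPB8, DNAJB2, HSPA2, DNAJC2). Red is SNHG5, blue is vector, symbols give the replicate number, the horizontal line is the mean of 3 libraries and the bar 1 SD. HSPA2 spans 1.46 to 136 CPM within the overexpression libraries.

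Members that did not reach 1 CPM in 3 libraries were 16 in number. HSPB2, HSPB3, HSPB7, HSPB2-C11orf52, DNAJA4, DNAJB8, DNAJC5B and DNAJC5G had 0 counts in all 6 libraries, which allows up to 0.176 to 0.224 CPM in each. The other 8, HSPA6, HSPA12B, HSPB6, HSPB9, DNAJB7, DNAJB13, DNAJC15 and DNAJC28, had at most 16 counts in any library. DNAJC15, a J-domain protein of the mitochondrial inner membrane, came nearest to the limit with 5, 7 and 16 counts against 5, 15 and 8. Among the genes inside it, HSPA1L was lowest on average.

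Co-chaperones and other folding genes outside the families were taken as a list of 55, all of them tested. The edgeR test called 0, against 0.128% of all genes, and 0 had an unadjusted p under 0.05, against 2.09% of all genes higher and 4.41% lower. DESeq2 and limma-voom also called 0, against 1.7% and 0.154% of all genes. Their median log2 difference was -0.07, with 24 above 0 and 31 below, and values ran from -0.55 to 0.54. CHORDC1 and TOMM70 had every overexpression library above every control, and FKBP5 and CCT7 had every one below (2 and 2 of 55, against 6.04% and 7.52% of all genes). CHORDC1, an HSP90 co-chaperone with heat shock element letters in its promoter, stood at 178, 160.2 and 149 CPM against 141, 91.2 and 138 CPM (0.40, SE 0.22, edgeR adjusted p 0.746), and its log2 difference was 0.22 without control 2. HYOU1, the HSP110 of the ER, and STIP1, which joins HSP70 to HSP90, had log2 differences of -0.13 and -0.05. The chaperonin genes TCP1, CCT2 to CCT5, CCT6A, CCT7 and CCT8, which fold actin and tubulin, lay between -0.25 and 0.22.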

How the data were processed

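RNA sequencing was done on 3 libraries of A549 cells transfected with SNHG5 and 3 with vector. Per the labels' protocols, total RNA was taken with a silica-column kit and paired-end libraries were made with Illumina's TruSeq RNA kit, which does not mark strand. FastQC, HISAT2 and the GRCh38 build are named, per the submitters' processing notes, with no versions. How reads were counted, and how shared reads were treated, is not given in the sources used here. Raw counts for each gene, as whole numbers, and FPKM were deposited in a single table. Results rest on the counts, and the deposited FPKM entered only the second order of members by level.

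Groups were compared on the deposited counts in R 4.3.3 by edgeR 4.0.16 (TMM factors, filterByExpr, robust quasi-likelihood test, two-sided, Benjamini-Hochberg adjustment over 15631 genes, threshold 0.05). Standard errors are the log2 fold change divided by the square root of F. CPM use TMM-scaled totals, except in the member rule, which uses library totals, and log2 CPM of single libraries carry a prior count of 2. CPM per kilobase divide by the exon union of GENCODE 29, where all 78 members were found by identifier and 74 at the same position. The common biological coefficient of variation was 30.8%, and 26.2% with the block. The fit was checked on simulated counts with known changes. Those counts had the same dispersion for every gene and no library set apart, so the check does not cover libraries that stand apart. Alternatives were run with DESeq2 1.42.0, limma 3.58.1 and other settings.

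Replicates differed by a chi-square of 26.2 to 94.5 per degree of freedom, above sampling noise. Same-numbered libraries deviated together (correlations of 0.35, 0.16 and 0.29), against -0.34 to 0.12 for libraries of unlike number. Each gene was first centred within its group, so positive values for same-numbered libraries push those for unlike numbers down. The contrast between them is not separate support for pairing. On the same-number correlations alone, the numbers were taken to pair libraries in the block and in the differences by pair. The main fit was unpaired. That pairing was read from these same data. The members and lists were chosen with earlier results of these data known. Named genes are those past the threshold, up to 8 per direction with non-overlapping groups, and a fixed list by role. Of the promoters meant for display, those of DNAJB1 and HSPH1 were shortened to sites or left out.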

Additional observations from a re-analysis of the deposited data

How the results depend on the processing

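Across 14 alternatives, the members were called in 1 setting: without overexpression replicate 3, HSPA1A and HSPA1B passed. For 36 named genes, 488 of 504 values kept their side of the threshold and their direction, 2 gained a call and 14, none of them called, turned in sign over 9 genes. With the replicate block, which pairs same-numbered libraries, 69 genes were called lower among all genes in place of 16, the members' median log2 difference was 0.10 in place of 0.14, HSPA2 was at -0.12, and no member gained or lost a call. Without the filter on low counts 72 genes were lower, and DESeq2 called 20 higher in place of 4 and 246 lower. With limma-voom the members' median was 0.10 and HSPA2 was at -0.37. The cause of these differences was not tested.

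Leaving out 1 library at a time gave 0 to 20 genes higher and 0 to 144 lower over all genes, the highest of both without overexpression 3, and 0 to 2 members lower. The median ranged from 0.048 to 0.13 for the members and from -0.39 (without overexpression 3) to -0.013 for the heat shock factor 1 list. Log2 differences of single genes that turned ranged from -0.35 to 0.092 for HSPA5, -0.11 to 0.029 for DNAJB11, -0.078 to 0.16 for HSP90AB1, -0.40 to 0.068 for HSPE1 and -1.64 to 2.06 for HSPA2. The others ranged from -0.14 to 0.58 for DNAJB2, -0.054 to 0.78 for HSPB8, -0.055 to 0.26 for HSP90B1 and -0.15 to 0.017 for STIP1. With 3 libraries a group, log2 differences of 0.83 (HSPA4L) and 0.60 (DNAJC3) did not pass.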
